A study of Mus musculus with 46 samples.

Results

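Transcripts of 9 Polycomb and DNA methylation genes, Ezh2, Suz12, Eed, Bmi1, Dnmt1, Dnmt3a, Dnmt3b, Uhrf1 and Hells, were followed in mouse mammary tumors. The genes were chosen by their symbols, with 1 probe set for each, taken as the probe set with the highest mean over all 46 arrays. All 9 were among the 9329 genes tested. They were measured by 22 probe sets of the 18586 in the table, and 20 of these 22 passed the filter on low values, a log2 value over 4 in at least 3 arrays. Levels are log2 values throughout, so a difference of 1 is a 2-fold difference, and a ± is an SD over arrays.

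Polycomb proteins and DNA methyltransferases write the 2 best known repressive marks of chromatin. Polycomb repressive complex 2 (PRC2) methylates lysine 27 of histone H3 through its catalytic subunit Ezh2, which works together with Suz12 and with Eed, the subunit that binds the finished mark. Polycomb repressive complex 1 (PRC1), of which Bmi1 is a subunit, ubiquitinates histone H2A. Dnmt3a and Dnmt3b place new methyl groups on CpG sites, while Dnmt1 copies existing methylation onto the new strand at each replication. Uhrf1 recognises the half-methylated CpG sites left by replication and brings Dnmt1 to them, and Hells is a chromatin remodeler needed for methylation of repeats. Copying of methylation is tied to DNA replication, and several of these genes are known to be transcribed most in dividing cells.

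Arrays came from 41 primary mammary tumors and 5 mammary glands of pregnant FVB mice without a transgene. C3(1)/Tag tumors (n = 5, FVB) express the SV40 T antigen from the C3(1) promoter. Tumors labelled p53-/- (n = 7, Balb/C) grew from transplanted p53 fl/fl;MMTV-cre mammary tissue, and those labelled BRCA1-/-p53+/- (n = 5, 129B6/FVB) arose in BRCA1 fl/fl;p53+/-;MMTV-cre mice, so that in both models deletion follows Cre made from the MMTV promoter. In the other 5 models, all FVB, that promoter drives c-Myc (n = 4), Her2/neu (n = 5), H-Ras (n = 5), Wnt1 (n = 4) or the polyoma middle T antigen PymT (n = 6). The authors place the first 3 models in a basal-type class (17 tumors) and the 5 MMTV models in a luminal-type class (24 tumors). Normal gland was analysed for FVB alone, so strain and model cannot be told apart for p53-/- transplant and BRCA1-/-p53+/-. The arrays hold whole tissue, in which fewer cells of a type and less RNA per cell cannot be told apart.

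One tumor stood apart from the others of its model. BRCA1-/-p53+/- 2 had the lowest level of Top2a on any array (2.52, against 9.68 to 12.47 in the other 4 tumors of the model), and its mean z-score over 5 adipocyte genes was 2.71, against at most 0.81 in the other tumors and 1.64 to 2.21 in normal glands. Its score over 18 mitosis genes was -2.58, against -2.22 to -1.41 in normal glands. These genes include Mki67 and Top2a, the markers of proliferation used below, so the choice of this tumor is not independent of them. The epithelial gene Epcam was at 10.55 in this tumor, against 11.52 to 12.60 in normal glands. Epcam was far lower in 3 other tumors, BRCA1-/-p53+/- 4 (2.99), BRCA1-/-p53+/- 3 (5.28) and MMTV-Wnt1 3 (3.6). Leaving out any 1 of these 3 left 7 genes called against normal gland and 1 between the classes. BRCA1-/-p53+/- 4 also had a mean z-score of -3.02 over the luminal epithelial genes and of 1.88 over the macrophage genes. Results that rest on BRCA1-/-p53+/- 2 are therefore given with and without it where both were computed. Correlations of the genes with each other and with their closest matches are given only with it. The same holds for the results on partner genes, Polycomb target genes and imprinted genes. The make-up of the tissue also differed between tumors and glands. All 6 milk genes and all 5 adipocyte genes measured were lower in tumors (median log2 differences -7.45 and -8.19), 4 of 8 macrophage genes were higher, 3 of 6 endothelial and 3 of 7 fibroblast genes were lower, and the part of these cells in the differences below was not tested.

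The promoters of these genes were searched for letters of 3 cell cycle motifs. E2F factors, which switch on genes for DNA replication, are known to bind a short motif rich in G and C after a run of T. Its 4 spellings (TTTCCCGC, TTTGGCGC, TTTCGCGC and TTTGCCGC) were searched on both strands in the 300 bases from 250 before to 50 after each RefSeq start site (GRCm38.p6). All 9 genes had a window. At least 1 of them was found in 5 of the 14 windows of these genes, 1 window for each of 5 genes, against 744 of all 32841 windows of the same length (2.27%). These 5 windows hold 31 to 41 CpG, against a median of 7 over all windows. All 4 spellings contain a CpG, and the windows compared were not matched for CpG content. The 5 sites are shown because the genes that hold them include the 4 that followed Mki67 most closely below. The match is in capitals, each site is written on the strand of its gene, and the Dnmt1 site has 28 bases because its window ends there.

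Ezh2: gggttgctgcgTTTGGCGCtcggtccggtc
Suz12: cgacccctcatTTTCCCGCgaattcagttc
Dnmt1: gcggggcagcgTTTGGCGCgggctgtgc
Uhrf1: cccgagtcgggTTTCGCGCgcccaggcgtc
Hells: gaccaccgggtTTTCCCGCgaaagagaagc

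Matches started 4 bases after the start of Ezh2 (window chr6:47594981-47595280, minus strand), at -219 from that of Suz12 (chr11:79992856-79993155, plus strand) and at -62 from that of Hells (chr19:38930740-38931039, plus strand). Dnmt1 has 3 annotated windows and Uhrf1 has 2. The match of Dnmt1 lay 34 bases after the third of them (chr9:20952574-20952873, minus strand), a window that held another match on the opposite strand, and that of Uhrf1 lay at -185 from the second of its starts (chr17:56304063-56304362, plus strand). No match was found in the windows of Eed, Bmi1, Dnmt3a or Dnmt3b, nor in those of the proliferation genes Mki67 and Top2a. The other motifs divided the genes in other ways. They are listed by gene over all windows of that gene, while the percentages beside them are shares of single windows. The CCAAT letters, on either strand, were found for Ezh2, Suz12, Eed, Dnmt1, Uhrf1, Mki67 and Top2a and in 37.4% of all windows. The cell cycle homology letters, searched as TTTGAA and also as TTCGAA on either strand, were found for Suz12, Eed, Dnmt1, Dnmt3b, Mki67 and Top2a and in 19.2% of all windows. All these letters are a description of the windows, and whether a factor binds there was not measured.

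The first comparison asked how the tumors differ from normal gland. Taking the mean of the 8 models with equal weight, Uhrf1, Hells, Dnmt1, Dnmt3a, Suz12 and Ezh2 were higher in tumors and Dnmt3b was lower. Genes were called at an adjusted p under 0.05 by limma with Benjamini-Hochberg adjustment over all 9329 genes. With 6 of 9 higher and 1 of 9 lower, the set compares with 24.2% of all genes called higher and 17.1% called lower. The median difference was 0.85 for the 9 genes and 0.20 for all genes.

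Uhrf1 showed the largest difference of the 9. In C3(1)/Tag tumors its values were 12.62, 12.27, 12.29, 12.12 and 12.34, and in MMTV-Her2/neu tumors 9.7, 9.19, 9.15, 9.44 and 9.06, against 6.65, 6.61, 3.85, 4.69 and 7.22 in normal glands. MMTV-H-Ras tumors had 8.68, 9.29, 8.84, 9.32 and 8.95, MMTV-c-Myc tumors 9.1, 9.01, 11.25 and 10.32, and MMTV-Wnt1 tumors 10.4, 10.83, 7.53 and 10.01. Of all 41 tumors only BRCA1-/-p53+/- 2 (4.19) reached down into the range of the glands.

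The other 4 BRCA1-/-p53+/- tumors had 9.02, 10.4, 9.38 and 9.76 of Uhrf1. Values ran from 8.98 through a median of 10.06 to 11.08 in p53-/- transplant and from 9.05 through 9.30 to 9.96 in MMTV-PymT. Tumors averaged 9.78 over the models against 5.80 ± 1.45 in normal glands (n = 5), a 15.8-fold difference (log2 difference 3.98, SE 0.52, adjusted p = 1.03e-07). Uhrf1 was the member called higher in every model, by 92.0-fold in C3(1)/Tag and by 6.71-fold (14.3-fold without BRCA1-/-p53+/- 2) in BRCA1-/-p53+/-. A second Uhrf1 probe set differed by 3.06 over the models (8.36-fold, adjusted p = 3.48e-06). Normal glands 3 and 4, at 3.85 and 4.69, were close to the floor of 4 used in the filter, so these folds rest in part on low values.

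Dnmt1, the enzyme that Uhrf1 recruits, was 2.91-fold higher in tumors (10.33 against 8.79 ± 0.56, n = 5; log2 difference 1.54, SE 0.21, adjusted p = 1.92e-07). C3(1)/Tag tumors had 11.66, 12.01, 11.9, 12.16 and 11.75, and MMTV-c-Myc tumors 11.46, 11.04, 11.52 and 10.59, against 8.65, 8.38, 8.29, 8.93 and 9.69 in normal glands. The 5 MMTV-H-Ras tumors had 7.94, 8.96, 8.75, 9.23 and 8.68. MMTV-H-Ras was thus the model whose Dnmt1 values lay within or below those of the glands (log2 difference -0.08, SE 0.28, adjusted p = 0.886), while the other 7 models were each called higher.

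Among those 7, Dnmt1 was 8.61-fold higher in C3(1)/Tag, 5.15-fold in MMTV-c-Myc and 3.72-fold in p53-/- transplant (10.37 to 11.44, median 10.54). MMTV-Her2/neu tumors were close to each other at 10.08, 10.04, 10.1, 9.97 and 10.15 (2.43-fold), and MMTV-Wnt1 tumors had 10.21, 10.18, 9.66 and 10.27 (2.45-fold). BRCA1-/-p53+/- tumors had 9.72, 9.67, 11.14, 9.98 and 9.82 (2.42-fold) and MMTV-PymT tumors ranged from 9.38 to 10.57 (2.26-fold). A second Dnmt1 probe set differed by 1.89 (adjusted p = 4.24e-07).

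Hells was 4.35-fold higher (9.39 against 7.26 ± 1.20, n = 5; log2 difference 2.12, SE 0.54, adjusted p = 0.00157). Its 5 C3(1)/Tag values lay within 11.59 to 11.79, against 7.72, 7.78, 6.84, 5.42 and 8.56 in normal glands. MMTV-c-Myc tumors spread over 7.38, 8.71, 10.26 and 10.32, and BRCA1-/-p53+/- tumors over 8.9, 3.6, 10.16, 9.12 and 9.81. Groups other than C3(1)/Tag therefore overlapped or came close to the highest gland, and Hells was called in 4 models, which were C3(1)/Tag (4.41), p53-/- transplant (2.62), MMTV-Wnt1 (2.18) and MMTV-PymT (1.83). The MMTV-PymT call was lost under median centring (adjusted p = 0.0673), under quantile normalization (0.104) and on leaving out any of 5 single arrays. The MMTV-Wnt1 call was lost under quantile normalization (adjusted p = 0.0503) and on leaving out any of 4 single arrays. In BRCA1-/-p53+/- its difference was 1.05 (adjusted p = 0.269) with BRCA1-/-p53+/- 2 and 2.23 (adjusted p = 0.00101) without it.

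The 3 core subunits of PRC2 differed from normal gland to unequal degrees. Suz12, the subunit that holds the complex together, was 1.80-fold higher in tumors (log2 difference 0.85, SE 0.20, adjusted p = 0.00056) and was called in every model except MMTV-Wnt1 (0.31, adjusted p = 0.435). Under median centring the calls in MMTV-Her2/neu (0.31, adjusted p = 0.411), MMTV-H-Ras (0.073), p53-/- transplant (0.0909) and MMTV-PymT (0.15) were lost. Its C3(1)/Tag values were 11.05, 10.92, 11.28, 11.27 and 10.85 and its MMTV-c-Myc values 11.09, 11.2, 10.8 and 10.38, against 8.91, 9.61, 9.33, 10 and 10.17 in normal glands. Both groups lay above all 5 glands.

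The result for Suz12 depended on the probe set. Of the other 4 probe sets, the pair with the higher signal gave 0.60 (adjusted p = 0.107) and 0.46 (adjusted p = 0.0868), and the pair near a mean of 5 gave -0.48 (adjusted p = 0.246) and -1.11 (adjusted p = 0.0153).

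Ezh2, the methyltransferase, was 1.73-fold higher over all models, close to the threshold (9.70 against 8.91 ± 0.26, n = 5; log2 difference 0.79, SE 0.32, adjusted p = 0.0454). The 5 C3(1)/Tag tumors had 11.33, 11.53, 11.39, 11.06 and 11.93, against 9.23, 8.67, 8.69, 9.13 and 8.84 in normal glands. In MMTV-Her2/neu the values were 9.47, 8.98, 8.84, 8.58 and 8.97, and in BRCA1-/-p53+/- they were 9.8, 7.09, 10.12, 8.09 and 9.62. C3(1)/Tag tumors thus lay well above the glands while MMTV-Her2/neu tumors overlapped them.

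Only C3(1)/Tag (5.79-fold, adjusted p = 6.32e-06) and p53-/- transplant (1.93-fold, adjusted p = 0.0495) were called for Ezh2 among single models. The p53-/- transplant call was lost in 5 other settings, among them median centring (adjusted p = 0.202), and on leaving out any of 32 single arrays. The call over all models was lost when each array was centred on its median (0.57, adjusted p = 0.148), under quantile normalization (0.65, adjusted p = 0.0958) and on leaving out any of 20 single arrays, with an adjusted p of at most 0.113 there. Centring moved the median difference of all genes from 0.197 to -0.018.

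Eed, the reader of the Polycomb mark, differed little between tumors and glands (log2 difference 0.28, SE 0.24, adjusted p = 0.357). It was called in C3(1)/Tag alone, where values of 10.85, 10.34, 10.58, 10.8 and 10.89 stood against 9.77, 9.77, 9.61, 9.84 and 10.4 in normal glands (0.81, adjusted p = 0.0321). This call was lost under median centring (0.39, adjusted p = 0.277).

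Bmi1 went the other way in part of the models. MMTV-c-Myc tumors had 7.53, 8.99, 10.26 and 9.61 and BRCA1-/-p53+/- tumors 9.44, 8.75, 10.25, 9.99 and 10.02, against 10.55, 10.68, 10.95, 10.62 and 10.75 in normal glands, which lay close together. All tumors of both models were below all glands (3.05-fold lower in MMTV-c-Myc, adjusted p = 0.000922, and 2.02-fold lower in BRCA1-/-p53+/-, adjusted p = 0.0236). Without BRCA1-/-p53+/- 2 the difference of that model was -0.78 (adjusted p = 0.0852), and the call was also lost without BRCA1-/-p53+/- 1 or normal gland 3.

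In p53-/- transplant Bmi1 ran from 10.37 through a median of 10.86 to 12.30 and overlapped the glands (0.32, adjusted p = 0.439). Over all models the difference was -0.61 (SE 0.26, adjusted p = 0.0604). It was called lower under median centring (-0.82, adjusted p = 0.00927), under quantile normalization (-0.67, adjusted p = 0.0328), with FVB arrays alone (-0.70, adjusted p = 0.027) and by the second probe set (-0.96, adjusted p = 0.0093).

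The 2 de novo methyltransferases moved in opposite directions. Dnmt3a was 1.80-fold higher in tumors (8.0 against 7.15 ± 0.54, n = 5; log2 difference 0.85, SE 0.23, adjusted p = 0.00295), and the other 4 probe sets were called higher too (0.61 to 1.65). MMTV-H-Ras tumors had 8.6, 8.45, 7.96, 7.9 and 8.32 and C3(1)/Tag tumors 8.47, 8.27, 8.02, 8.16 and 7.7, against 7.07, 6.61, 6.74, 7.36 and 7.95 in normal glands. Both models overlapped the highest gland. It was called in 6 models, with differences from 0.83 to 1.10, and not in MMTV-c-Myc (0.36) or MMTV-PymT (0.62). Of these 6 calls, MMTV-H-Ras was the one not lost when arrays were centred on their medians.

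Dnmt3b, near the lower end of the measured range, was 2.09-fold lower over all models (5.56 against 6.63 ± 0.81, n = 5; log2 difference -1.07, SE 0.41, adjusted p = 0.0355). That call was lost on leaving out normal gland 1, 4 or 5, with an adjusted p of up to 0.164. MMTV-Her2/neu was the model in which it was called by itself, at 4.34, 3.96, 3.96, 4.35 and 3.98 against 7.15, 5.79, 5.96, 6.54 and 7.71 in normal glands (5.71-fold lower, adjusted p = 0.000441). These values are close to the floor of 4 used in the filter.

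**Figure D1:**
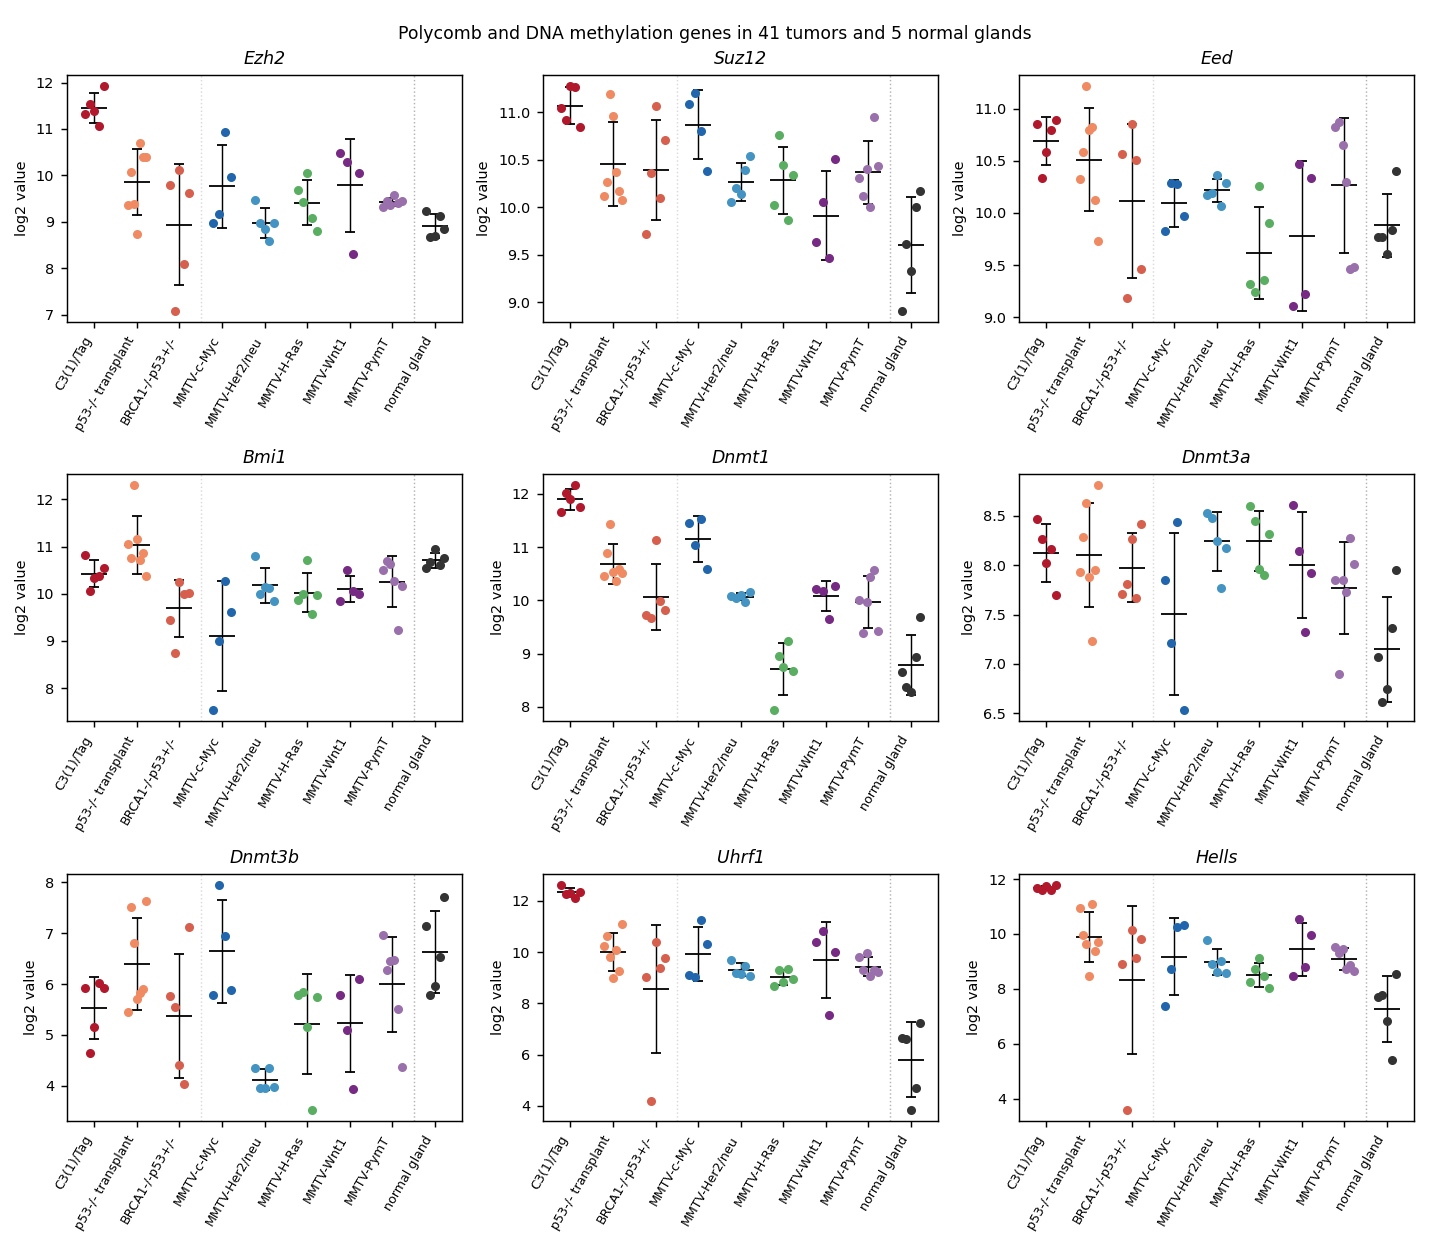
Log2 value (vertical axis of each panel) of the 9 genes in 46 arrays, by tumor model and normal gland (horizontal axis), each array drawn as a point and each group's mean ± SD as black bars. Uhrf1 lay above the normal glands (3.85 to 7.22) in every tumor except BRCA1-/-p53+/- 2 (4.19), and Dnmt1 in MMTV-H-Ras (7.94 to 9.23) overlapped the glands (8.29 to 9.69).

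Counted by model, 38 of 72 differences from normal gland were called. Since all models share the same 5 glands, the 8 comparisons are not independent of each other. C3(1)/Tag had 7 of 9 genes higher and 0 lower (all genes 29.4% and 18.5%), and p53-/- transplant had 6 and 0 (26.1% and 16.6%). BRCA1-/-p53+/- had 4 higher and 1 lower (16% and 16.2%). Without BRCA1-/-p53+/- 2 this model had 5 calls, all of them higher. Hells was then called by limma (adjusted p = 0.00101) and Bmi1 was not (adjusted p = 0.0852). MMTV-Her2/neu had 4 and 1 (22.3% and 12.8%) and MMTV-c-Myc 3 and 1 (17.1% and 14.6%). MMTV-Wnt1 (14.5% and 13.3%) and MMTV-PymT (20.3% and 12.3%) each had 4 higher and 0 lower, and MMTV-H-Ras had 3 and 0 (14% in each direction). Centring arrays on their medians removed 12 of the 38 calls and quantile normalization removed 11, mostly of Dnmt3a and Suz12.

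**Figure D2:**
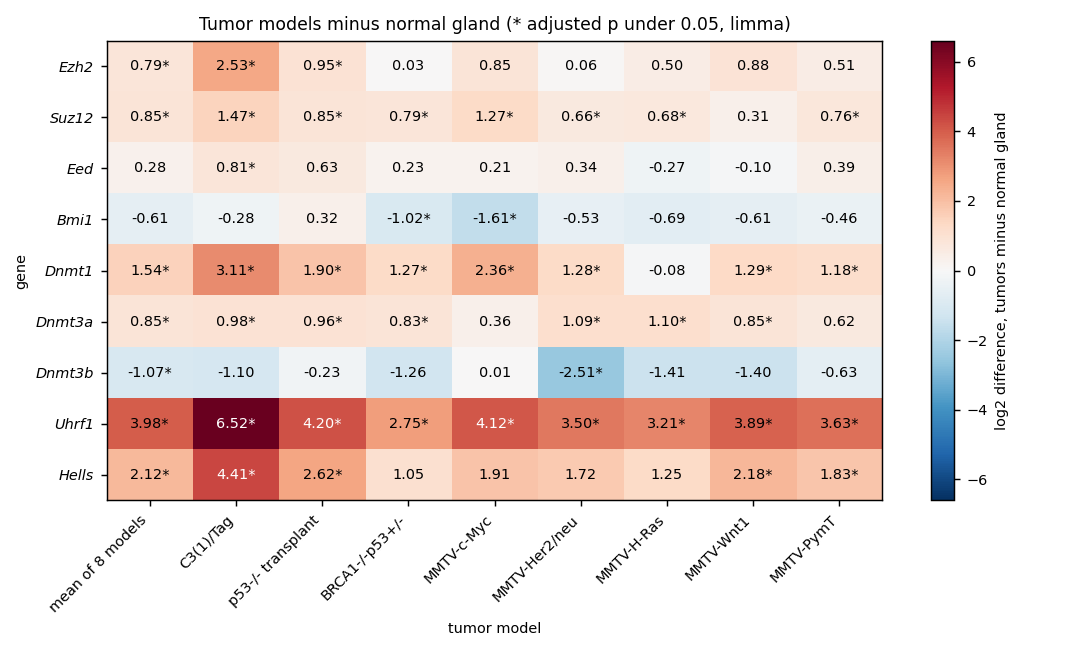
Log2 difference of each tumor model, and of the mean of 8 models, from normal gland (colour and printed value) for the 9 genes (rows), with an asterisk for an adjusted p under 0.05 in limma. Uhrf1 was called in all 8 models (2.75 to 6.52), Dnmt1 in 7, and Bmi1 and Dnmt3b had the only called decreases.

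The second comparison was among the 8 tumor models. Of the 9 genes 8 differed among models by the moderated F test, a share to be set against 74.5% of all genes. Dnmt1 separated the models most (F = 22.4, adjusted p = 1.3e-09), with 17 of 28 pairs of models called and 3.19 between C3(1)/Tag and MMTV-H-Ras. The F of Ezh2 was 6.81 (adjusted p = 0.000133), that of Bmi1 5.30 (0.000795), that of Uhrf1 5.28 (0.000809) and that of Hells 4.30 (0.00296). Dnmt3b had 4.22 (0.00334), Suz12 3.47 (0.00976) and Eed 2.52 (0.042), a call that was lost under median centring (adjusted p = 0.257). Dnmt3a was the gene for which no difference among models was called (F = 1.23, adjusted p = 0.333; 0 of 28 pairs).

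C3(1)/Tag had the highest mean of 6 of the 9 genes, which were Ezh2, Suz12, Eed, Dnmt1, Uhrf1 and Hells. It was called higher than each of the other 7 models for Ezh2 (1.58 to 2.5) and Uhrf1 (2.32 to 3.78). The largest of these differences were from BRCA1-/-p53+/-, with BRCA1-/-p53+/- 2 (Ezh2 7.09, Uhrf1 4.19) included. For Hells as well, C3(1)/Tag differed most from that model (3.36). C3(1)/Tag was higher in Hells than 6 of them, all but p53-/- transplant (1.80, adjusted p = 0.0611), and in Dnmt1 than 6, all but MMTV-c-Myc (0.74, adjusted p = 0.0697). Suz12 was higher than in 4 models, and Eed, Bmi1 and Dnmt3b than in 1 each. Of all genes, the share called higher in C3(1)/Tag was 14% against MMTV-c-Myc, 17.0% against MMTV-Her2/neu, 23.7% against MMTV-H-Ras, 9.38% against p53-/- transplant, 12% against MMTV-Wnt1, 17.4% against BRCA1-/-p53+/- and 17.6% against MMTV-PymT.

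Below C3(1)/Tag, few neighbours in the order of means could be told apart. For Ezh2 and Uhrf1 the step from C3(1)/Tag to p53-/- transplant, next in the order, was called (1.58, adjusted p = 0.00469, and 2.32, adjusted p = 0.0114). The step from BRCA1-/-p53+/- to normal gland was called for Uhrf1, and that from MMTV-PymT to normal gland for Dnmt1. All other steps between neighbours, over the 9 genes, were not called. For Bmi1 the order was led by p53-/- transplant (11.03 ± 0.62, n = 7), which was higher than MMTV-c-Myc (1.93, adjusted p = 0.00029), BRCA1-/-p53+/- (1.34, adjusted p = 0.00595), MMTV-H-Ras (1.01, adjusted p = 0.0178) and MMTV-Her2/neu (0.85, adjusted p = 0.0469). For Dnmt3b MMTV-Her2/neu was lower than MMTV-c-Myc, p53-/- transplant, MMTV-PymT and C3(1)/Tag (differences of 1.42 to 2.53).

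The third comparison set basal-type against luminal-type tumors. Over all 41 tumors 1 of the 9 genes, Dnmt1, was higher in basal-type tumors and 0 were lower, against 15.9% and 12% of all genes. Dnmt1 averaged 10.86 ± 0.84 in basal-type tumors (n = 17) and 9.94 ± 0.85 in luminal-type tumors (n = 24), a 1.89-fold difference (SE 0.27 on the log2 scale, adjusted p = 0.00906). The ranges overlapped, from 9.67 to 12.16 and from 7.94 to 11.52.

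Here each tumor counted as a separate sample whatever its model. When model entered as a random block (correlation 0.313) the difference of Dnmt1 was 0.90 (adjusted p = 0.163) and 0 of the 9 genes were called by limma, with 1 at an unadjusted p under 0.05, against 0.525% of all genes called.

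Which genes passed the threshold depended on 1 tumor. Without BRCA1-/-p53+/- 2, 6 of the 9 genes were higher in basal-type tumors (19% of all genes higher, 12.6% lower). Hells then differed by 1.32 (adjusted p = 0.000922), Uhrf1 by 1.20 (0.00452), Dnmt1 by 0.99 (0.00462), Ezh2 by 0.80 (0.0184), Bmi1 by 0.59 (0.033) and Eed by 0.52 (0.0151). With it the differences were 0.93 for Hells, 0.82 for Uhrf1, 0.61 for Ezh2, 0.49 for Bmi1 and 0.44 for Eed, with adjusted p from 0.0535 to 0.156. Leaving out any other single tumor gave at most 2 calls. The count without this tumor again takes each tumor as a separate sample. With model as a random block and without this tumor, limma called 0 of the 9 genes (1.32% of all genes), with 3 at an unadjusted p under 0.05, and Hells had 1.32 (adjusted p = 0.0981).

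Without the C3(1)/Tag tumors no class difference was called. Over the other 36 tumors limma called 0 of the 9 genes, with 0 at an unadjusted p under 0.05, against 10.3% of all genes higher and 8.65% lower. Dnmt1 then differed by 0.48 (adjusted p = 0.209), Bmi1 by 0.50 (0.188), Hells by 0.21 (0.781), Ezh2 by 0.04 (0.947) and Uhrf1 by -0.04 (0.957). Leaving out BRCA1-/-p53+/- 2 as well, limma called 0 genes, with 3 at an unadjusted p under 0.05 (11.4% of all genes higher, 8.43% lower), and Hells had 0.72 (adjusted p = 0.0627) and Bmi1 0.66 (adjusted p = 0.0649).

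With FVB arrays alone, where C3(1)/Tag is the only basal-type model (n = 5, against 24 luminal-type tumors), 6 of the 9 genes were higher against 18.5% of all genes. Uhrf1 then differed by 2.88 (adjusted p = 3.33e-07), Hells by 2.66 (1.04e-06), Ezh2 by 2.00 (6.21e-06) and Dnmt1 by 1.95 (0.000286). Suz12 (0.74) and Eed (0.68) were called there as well, and Bmi1 (0.46, adjusted p = 0.301) was not. Fibroblast genes also differed between the classes over all 41 tumors, with 5 of 7 higher in basal-type tumors, and their part was not tested.

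**Figure D3:**
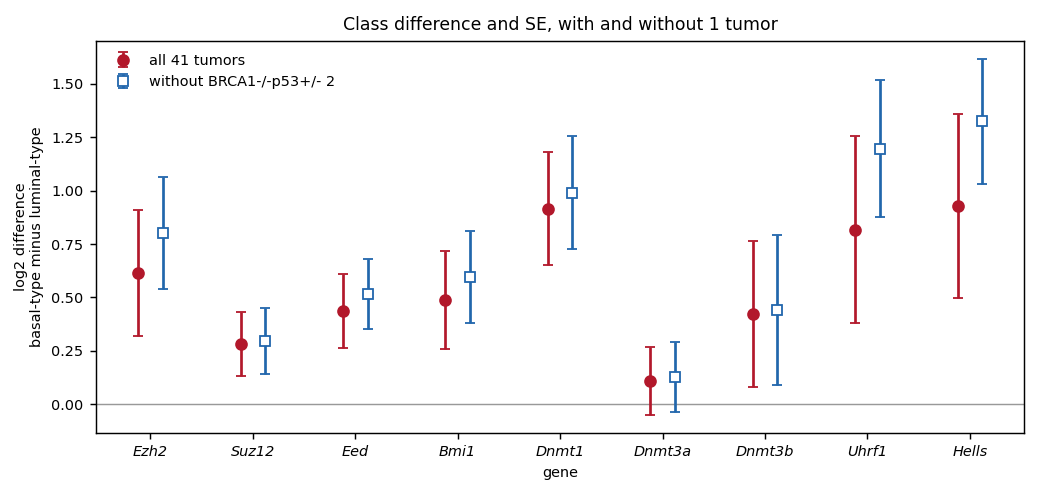
Log2 difference of basal-type minus luminal-type tumors (vertical axis) with its SE for each of the 9 genes (horizontal axis), over 41 tumors (filled circles) and without BRCA1-/-p53+/- 2 (open squares). Hells had 0.93 over 41 tumors and 1.32 without that tumor, Uhrf1 0.82 and 1.20, and Dnmt3a stayed near 0 in both.

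The fourth comparison asked how far the genes follow proliferation. Mki67 encodes the Ki-67 antigen of dividing cells and Top2a the topoisomerase that untangles chromosomes before they part. Mki67 was itself 4.12-fold and Top2a 21.2-fold higher in tumors than in normal gland, and both were highest in C3(1)/Tag (12.80 ± 0.40 and 12.73 ± 0.26, n = 5). Across the 41 tumors Pearson's r with Mki67 was 0.85 for Uhrf1, 0.83 for Hells, 0.79 for Ezh2, 0.75 for Dnmt1, 0.60 for Eed and 0.54 for Suz12. For Bmi1 it was 0.33, for Dnmt3b 0.23 and for Dnmt3a 0.04, against a median of 0.07 over all genes.

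Spearman's rank correlation ran in a similar way, at 0.72 for Uhrf1, 0.76 for Hells, 0.71 for Ezh2, 0.74 for Dnmt1, 0.56 for Eed and 0.50 for Suz12. A permutation test (100000 permutations, two-sided, adjusted over all genes) called 6 of the 9 genes positive and 0 negative with Mki67, against 16.8% and 5.72% of all genes. The adjusted p was 0.000261 for Uhrf1, Hells, Ezh2, Dnmt1 and Eed, whose unadjusted p of 1e-05 is the smallest these permutations can give. It was 0.0026 for Suz12. For Bmi1 it was 0.114, for Dnmt3b 0.299 and for Dnmt3a 0.875.

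With Top2a, r was 0.88 for Hells, 0.87 for Uhrf1, 0.71 for Ezh2, 0.63 for Dnmt1 and 0.52 for Eed, and these 5 were called positive and 0 negative (16.8% and 6.76% of all genes). Spearman's rank correlation was 0.76 for both Hells and Uhrf1, 0.65 for Ezh2, 0.77 for Dnmt1 and 0.47 for Eed. Suz12 (0.36, adjusted p = 0.0645) and Bmi1 (0.42, adjusted p = 0.0712) missed the threshold, and Dnmt3b (0.10) and Dnmt3a (0.08) were near 0. Without BRCA1-/-p53+/- 2 the r of Suz12 with Top2a was 0.52 (adjusted p = 0.00449), which was called, that of Bmi1 was 0.30 (adjusted p = 0.133) and that of Dnmt1 was 0.83. In all, 18 relations were computed for these genes.

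The relation was also computed without part of the extreme tumors, but not without both BRCA1-/-p53+/- 2 and all C3(1)/Tag tumors. Without the 2 tumors farthest from the median of Mki67, BRCA1-/-p53+/- 2 and C3(1)/Tag 1, r was 0.80 for Uhrf1, 0.78 for Hells, 0.72 for Ezh2, 0.77 for Dnmt1, 0.53 for Eed and 0.56 for Suz12. C3(1)/Tag tumors form a cluster at the top of both markers, and over the other 36 tumors r was 0.75 for Uhrf1, 0.74 for Hells, 0.65 for Ezh2, 0.59 for Dnmt1 and 0.53 for Eed, while that of Suz12 was 0.34 (adjusted p = 0.201).

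Within models, the deviations of tumors from their model mean gave r of 0.71 for Hells, 0.70 for Uhrf1, 0.59 for Ezh2, 0.55 for Eed, 0.46 for Dnmt1 and 0.27 for Suz12. Without BRCA1-/-p53+/- 2 they were 0.54 for Hells, 0.53 for Uhrf1, 0.44 for Ezh2, 0.45 for Eed, 0.43 for Dnmt1 and 0.31 for Suz12. These permutations exchange tumors across models, and tumors of 1 model are alike in both measures.

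**Figure D4:**
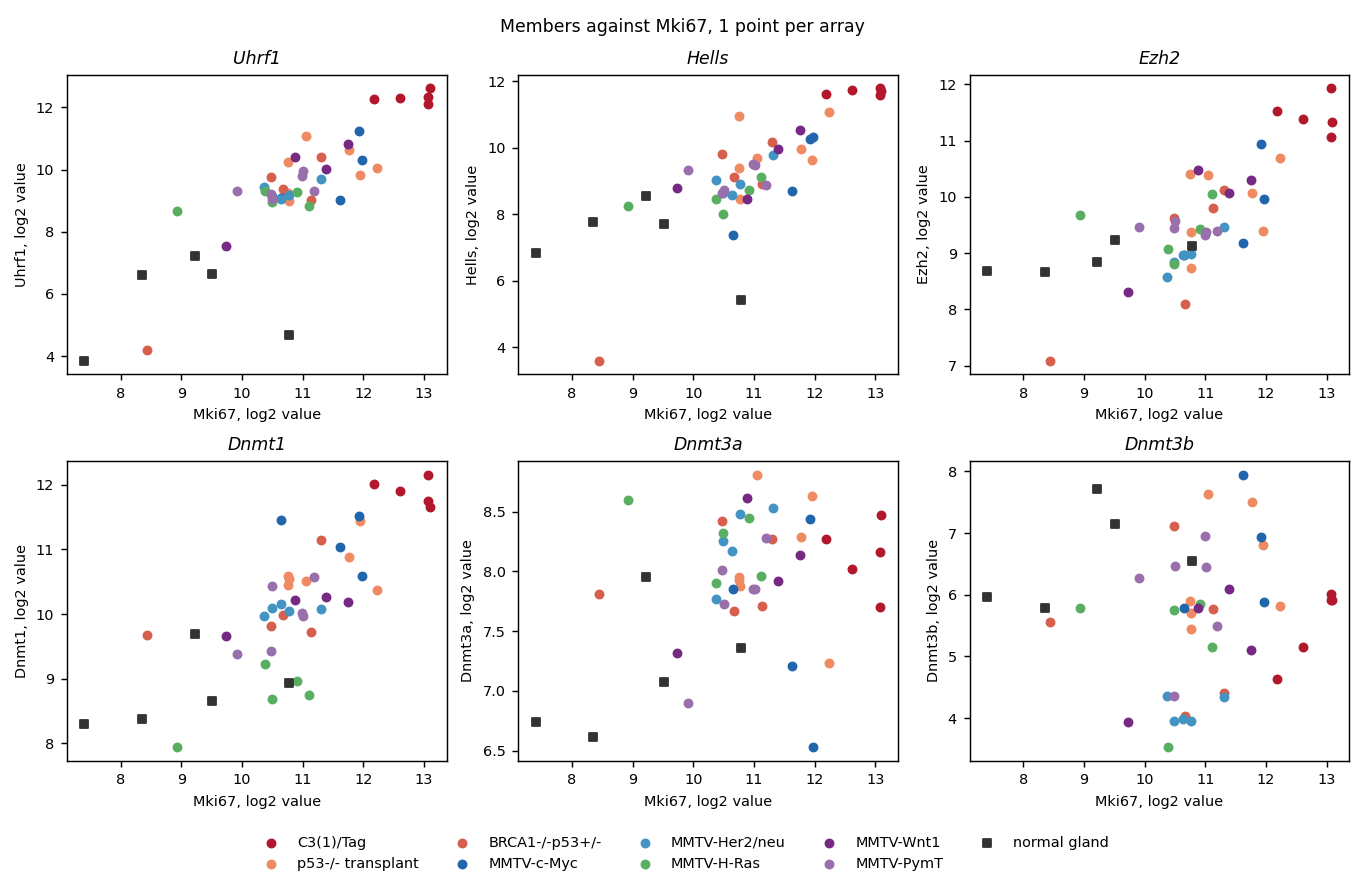
Log2 value of 6 of the 9 genes (vertical axis) against that of Mki67 (horizontal axis), 1 point per array, coloured by tumor model, with squares for normal gland. Over the 41 tumors r was 0.85 for Uhrf1, 0.83 for Hells, 0.79 for Ezh2 and 0.75 for Dnmt1, and it was 0.04 for Dnmt3a and 0.23 for Dnmt3b.

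The slope of each gene on Mki67 within the 9 groups was then estimated by limma, as the log2 change per log2 unit of Mki67. Uhrf1 (0.84, adjusted p = 0.00741), Hells (0.73, 0.0318), Ezh2 (0.48, 0.0155) and Eed (0.30, 0.0473) had a positive slope and 0 genes a negative one, against 3.72% and 1.51% of all genes. Without BRCA1-/-p53+/- 2 limma called 0 of the 9 with 4 at an unadjusted p under 0.05. The slope was then 0.29 for Hells (adjusted p = 0.515), 0.47 for Uhrf1 (0.213), 0.36 for Ezh2 (0.207) and 0.26 for Eed (0.269). Of all genes 0.429% and 0.0858% were called positive and negative there.

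On Top2a, 6 slopes were positive and 0 negative (13.6% and 6.76% of all genes), led by Hells (0.66, adjusted p = 3.13e-07) and Uhrf1 (0.64, adjusted p = 3.53e-07). Without BRCA1-/-p53+/- 2 Dnmt1 alone was called (0.44, adjusted p = 0.00728), against 2.45% of all genes positive and 0.343% negative, while Uhrf1 had 0.62 (adjusted p = 0.0707) and Hells 0.51 (adjusted p = 0.153). The call of Dnmt1 with all arrays (0.13, adjusted p = 0.0442) was itself lost under median centring (adjusted p = 0.23), quantile normalization (0.152), with FVB arrays alone (0.262), with the replicate number as a block (0.133) and on leaving out any of 9 single arrays, up to 0.267 without BRCA1-/-p53+/- 3. The slope of Uhrf1 on Top2a was nearly as steep without BRCA1-/-p53+/- 2 although its call was lost, while that of Hells on Mki67 fell to 0.29 without it, against 0.73 with it. Leaving out BRCA1-/-p53+/- 3 left 2 genes called on Mki67 and 4 on Top2a.

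At equal Mki67, part of the differences from normal gland was lost and part was not. With Mki67 as a covariate 2 of the 9 genes were higher in the mean of the models and 2 lower (10% and 11.1% of all genes). Uhrf1 was 4.78-fold higher (log2 difference 2.26, adjusted p = 0.00491) and Dnmt1 2.03-fold higher (1.02, adjusted p = 0.00385), and Bmi1 (-1.10, adjusted p = 0.0172) and Dnmt3b (-1.53, adjusted p = 0.043) were lower. Hells had 0.62 (adjusted p = 0.525) and Ezh2 -0.19 (adjusted p = 0.751), where without the covariate they differed by 2.12 and 0.79. The value of Hells was unstable, at 1.71 with FVB arrays alone (adjusted p = 0.0264, called), 1.66 without BRCA1-/-p53+/- 2 (adjusted p = 0.0194, called) and -1.03 without normal gland 4.

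The adjustment was not stable to the choice of arrays and marker. Normal gland 4, with the highest Mki67 of the glands (10.78) but a Uhrf1 of 4.69, mattered most. Without it 1 of the 9 genes was called, Uhrf1 had an adjusted p of 0.345 and Dnmt1 of 0.0594. The Dnmt3b call was lost on leaving out any of 9 single arrays (adjusted p up to 0.131), and the Bmi1 call on leaving out 1 array (adjusted p = 0.0515). With Top2a in place of Mki67, Dnmt1 (0.95, adjusted p = 0.0181) and Bmi1 (-1.42, adjusted p = 0.00443) were called and Uhrf1 was not (1.16, adjusted p = 0.106).

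Between the classes, limma called 0 of the 9 genes at equal Mki67, with 1 at an unadjusted p under 0.05 (13.3% of all genes higher, 12.3% lower). The difference of Dnmt1 was then 0.48 (adjusted p = 0.0778). With Top2a as the covariate it was 0.69 (adjusted p = 0.0175).

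The 9 genes divided in how they moved with each other across the 41 tumors. Uhrf1 and Hells were closest (r = 0.91, and 0.85 as deviations from model means), and both were close to Ezh2 (0.87 and 0.82). The PRC2 subunits were less alike, with r of 0.36 between Ezh2 and Eed, 0.33 between Ezh2 and Suz12 and 0.38 between Suz12 and Eed. Eed went more closely with Bmi1 (0.55) and Suz12 with Dnmt1 (0.63). Dnmt3a was near 0 with Dnmt3b (0.01) and Dnmt1 (0.03). These are descriptions over tumors that share models, and no test was made. BRCA1-/-p53+/- 2 was kept, with the lowest Uhrf1 (4.19), Hells (3.6) and Ezh2 (7.09) of the 41 tumors. Its part in these r values was not tested.

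The genes most like each member differed in kind. BRCA1-/-p53+/- 2 was kept in all these matches, and its part in them was not tested. Over the 41 tumors, Uhrf1 was most like Mcm2 (r = 0.93), a subunit of the replication helicase, Cenpf (0.92), a kinetochore protein gene, and Dtl (0.92), which acts in the replication checkpoint. Hells was most like Mcm2 (0.93), Cep55 (0.92) and the spindle checkpoint gene Mad2l1 (0.92). Ezh2 was most like Snrpg (0.92), a splicing protein gene, Uhrf1 (0.87) and Mcm2 (0.86). Dnmt1 was most like Mms22l (0.83), Timeless (0.83), both of which act at replication forks, and the splicing factor gene Eftud2 (0.82).

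The other members had weaker matches. Eed was most like Bub3 (0.81), Snrpa1 (0.80) and Ppp1r8 (0.79). Suz12 was most like Naa15 (0.72), Wac (0.68) and Cenpe (0.68), and Bmi1 was most like Mob4 (0.73), 1110004F10Rik (0.71) and 4921524J17Rik (0.68). Dnmt3b reached 0.66 with Snrpe, 0.65 with Hspe1 and 0.63 with Prtn3. Dnmt3a had the weakest matches, Spin1 (0.60), Scaf8 (0.53) and Chd6 (0.53).

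The partners of these genes were also compared with normal gland, where 24.2% of all genes were called higher and 17.1% lower. Of 8 PRC2 partners measured, 4 were higher in tumors and 1 was lower (median difference 0.53), the accessory subunit Epop at -1.69 (adjusted p = 0.0135). Of 13 PRC1 partners 7 were higher and 0 lower (median 0.69), led by Scmh1 (7.79 in tumors and 4.52 in glands, 9.64-fold, adjusted p = 1.67e-06). The gland mean of Scmh1 is close to the floor of 4 used in the filter, so its fold rests in part on low values. Of 6 partners in DNA methylation 4 were higher and 1 lower (median 1.36). Cdca7, the DNA-binding partner of Hells, was 5.25-fold higher (adjusted p = 4.68e-05) and the replication clamp gene Pcna, which is also an S phase gene, 3.13-fold higher (adjusted p = 5.83e-07). Mat2b, a regulator of S-adenosylmethionine synthesis, was 1.97-fold lower (adjusted p = 0.000157).

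Some genes that oppose or read the marks were also called. Of 5 genes linked to the removal of the marks 3 were higher and 0 lower (median 1.13), with Gadd45a, which has been linked to DNA demethylation, at 7.54-fold (adjusted p = 2.23e-06). Of 4 readers of methylated CpG 2 were higher and 0 lower (median 0.98), among them Mbd2 at 3.02-fold (adjusted p = 9.14e-07). Over all genes the median was 0.20. For 22 S phase genes, of which 18 were higher, it was 2.38, and for 18 mitosis genes, all of which were higher, it was 3.49.

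Fewer partners separated the classes, with BRCA1-/-p53+/- 2 kept among the tumors. Cdca7 was 3.06-fold higher in basal-type tumors (8.20 against 6.59, adjusted p = 0.00758), as were the PRC1 genes Cbx2 (2.12-fold, adjusted p = 0.00631) and Phc2 (2.00-fold, adjusted p = 0.00248), Gadd45b (2.09-fold, adjusted p = 0.00956) and the methyl-CpG binding glycosylase gene Mbd4 (1.95-fold, adjusted p = 0.0282). Mat2b was 1.66-fold lower (adjusted p = 0.00794). With the model as a random block the adjusted p of these 6 genes lay between 0.197 and 0.275. The counts in the class comparison were 1 of 8 PRC2 partners, 3 of 13 PRC1 partners, 2 of 5 opposing genes, 2 of 6 DNA methylation partners and 2 of 4 readers higher, and 1 gene, Mat2b, lower, against 15.9% of all genes higher and 12% lower.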

How the data were processed

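The log2 values were used as deposited. The authors hybridised RNA from 1 tumor or gland to each Affymetrix mouse genome array and computed GC-RMA values in Partek, with a MAS5 filter on probe sets, whose versions are not given in the sources used here. Precision is limited by how many arrays a group has. GC-RMA shrinks dim probe sets toward a floor, which bears on Dnmt3b and on Uhrf1 in normal glands 3 and 4.

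Probe sets with 1 gene symbol in the platform annotation (16962 of 18586) were kept where log2 exceeded 4 in at least 3 arrays, and each gene was represented by its probe set with the highest mean (9329 genes). Differences were fitted in limma 3.58.1 (R 4.3.3) with 9 groups over 46 arrays, or 2 classes over 41 tumors, with Benjamini-Hochberg adjustment over all genes and a call at 0.05 without a fold minimum. Random blocks used duplicateCorrelation. Permutation p-values of r used 100000 permutations (numpy 2.4.6). The fits were tested on simulated data. Nothing in the labels ties tumors to a litter or hybridisation batch, and p-values measure the spread between these samples. Named partners were the 5 called genes per direction with the largest log2 difference over the 5 partner lists, and the 2 largest among Polycomb targets and among imprinted genes. The genes and lists were chosen with earlier results of these data known. Alternatives covered scaling, filter, probe set, strain, blocks and leaving out each array. Promoter windows are from RefSeq (GRCm38.p6).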

Additional observations from a re-analysis of the deposited data

Results flagged for a closer look

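Within 81 combinations of gene and group, 6 had 1 array far from the others of its group by Dixon's criterion, which chance gives in about 1 of 20. BRCA1-/-p53+/- 2 had the lowest Uhrf1 of its model (4.19, against 9.02 to 10.4 in the other 4 tumors) and the lowest Hells (3.6, against 8.9 to 10.16). This is the tumor whose adipocyte genes were high and whose mitosis genes were low, and the part of its tissue make-up was not tested.

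BRCA1-/-p53+/- 3 had the highest Dnmt1 of that model (11.14, against 9.67 to 9.98). MMTV-Wnt1 3 had the lowest Dnmt1 of its model (9.66, against 10.18 to 10.27). Bmi1 stood out in p53-/- transplant 3 as the highest value (12.3, against 10.37 to 11.17) and in MMTV-PymT 5 as the lowest (9.23, against 10.16 to 10.7).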

How the results depend on the processing

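Counts of called genes moved with the arrays used. Leaving out 1 array at a time gave 5 to 8 of 9 genes called against normal gland (7 with all arrays), 30 to 41 of 72 single-model differences (38), 7 to 8 genes among models (8), 1 to 6 between classes (1), 0 to 5 slopes on Mki67 (4), 1 to 6 slopes on Top2a (6), 1 to 4 genes at equal Mki67 against normal gland (4) and 0 to 1 between classes (0). Of the 18 correlations 11 were called, and 12 without BRCA1-/-p53+/- 2. Between classes, 2 genes were called by eBayes with trend and robust variances, 6 with FVB arrays alone, 0 with model as a random block (with or without BRCA1-/-p53+/- 2) and 0 without C3(1)/Tag (with or without BRCA1-/-p53+/- 2). Uhrf1 changed sign (-0.043) without C3(1)/Tag where BRCA1-/-p53+/- 2 was kept. The fits without C3(1)/Tag and the block without BRCA1-/-p53+/- 2 were chosen after seeing the data. The correlations without C3(1)/Tag and those without BRCA1-/-p53+/- 2 were chosen in the same way. Slopes on Mki67 fell to 2 calls under median centring, 2 under quantile normalization and 0 with FVB arrays. Slopes on Top2a fell to 3, 3 and 0. With Top2a in place of Mki67, 2 genes were called against normal gland and 1 between classes, and with FVB arrays 2 between classes at equal Mki67. The cause of these changes was not tested.

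Replicate numbers did not pair samples across groups, since same-numbered samples had a mean correlation of deviations of 0.014 over 166 pairs (-0.003 for other pairs). With the replicate block, 2 genes were called between classes and 2 slopes on Mki67, Ezh2 lost its call against normal gland (adjusted p = 0.0585), and small values changed sign for Dnmt3b on Top2a (slope 0.0018) and Ezh2 between classes at equal Mki67 (-0.0015).

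Directions reversed mainly for Suz12 measured by its probe set with the largest variance, a dim one. It gave -1.11 against normal gland, -1.60 at equal Mki67, -0.54 between classes and -0.55 between classes at equal Mki67, with -1.45 in C3(1)/Tag, -2.10 in p53-/- transplant, -0.67 in BRCA1-/-p53+/-, -1.48 in MMTV-Her2/neu and -1.23 in MMTV-PymT. Another dim probe set gave -0.48 against normal gland and -0.44 between classes. The largest-variance probe set of Dnmt3a gave slopes of -0.019 on Mki67 and -0.10 on Top2a. With the probe set used in the main results, the r of Dnmt3a with Mki67 was -0.039 without the 2 farthest tumors. It was -0.121 under median centring and -0.017 without C3(1)/Tag, and the r of that probe set with Top2a was -0.114 under median centring. The r of Dnmt3b with Top2a was -0.106 over 46 arrays and -0.040 for deviations from group means.

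The other reversals were of values not past the threshold with all arrays. With FVB arrays the slope of Dnmt3b on Top2a was 0.20, Ezh2 at equal Mki67 differed by 0.21 from normal gland, and between classes at equal Mki67 Dnmt3b had -1.11 and Uhrf1 1.43 (adjusted p = 0.0264). Leaving out 1 array, the slope of Dnmt3b on Top2a ranged from -0.069 to 0.035, with 0.035 without BRCA1-/-p53+/- 3 and 0.020 without BRCA1-/-p53+/- 4. At equal Mki67, Ezh2 ranged from -0.52 to 0.098 against normal gland, the highest without BRCA1-/-p53+/- 2, and Hells from -1.03 without normal gland 4 to 1.66 without BRCA1-/-p53+/- 2. Between classes at equal Mki67, Uhrf1 had 0.012 without p53-/- transplant 3, 0.011 without p53-/- transplant 5, 0.012 without BRCA1-/-p53+/- 1 and 0.35 without BRCA1-/-p53+/- 2 (lowest -0.14), and Hells ranged from -0.036 without p53-/- transplant 1 to 0.59. Of the 34 single-model differences not called, 47 of 1829 alternatives made a call.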

Other observations

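Genes known to be silenced by Polycomb were a mixed group. Of 9 measured, 2 were higher in tumors than in normal gland and 1 was lower, with a median log2 difference of 0.04. These shares (22.2% and 11.1%) are near those of all genes (24.2% and 17.1%). The cell cycle inhibitor gene Cdkn2b was 11.5-fold higher (adjusted p = 4.47e-05) and its neighbour Cdkn2a 3.62-fold higher (adjusted p = 0.0441), and the homeobox gene Hoxc8 was 3.86-fold lower (adjusted p = 0.0078), all by limma. Between the classes both inhibitors stood higher in the basal-type one, Cdkn2a by 11.8-fold (adjusted p = 2.36e-05) and Cdkn2b by 8.99-fold (adjusted p = 0.000154), and under a random block for model the adjusted p was 0.0698 for Cdkn2a and 0.0921 for Cdkn2b.

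Of 11 imprinted genes 3 (27.3%) were lower in tumors and 0 higher (median -0.81), against 17.1% of all genes lower. Ndn was 20.2-fold lower (adjusted p = 7.12e-07) and Cdkn1c, another cell cycle inhibitor gene, 4.57-fold lower (adjusted p = 0.000414). Between classes Igf2 was higher in basal-type tumors (log2 difference 2.46, adjusted p = 0.0241) and Plagl1 lower (-1.95, adjusted p = 0.0228), with an adjusted p of 0.422 for Igf2 and 0.401 for Plagl1 under a random block for model. Fibroblast genes differed as well (3 of 7 lower in tumors than in glands, 5 of 7 higher in basal-type tumors), and their part was not tested. BRCA1-/-p53+/- 2 was kept in the results for Polycomb target and imprinted genes. It had the highest mean z-score of its model over both lists (1.54 and 1.13), and its part was not tested. Methylation of DNA or histones was not measured on these arrays.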
